A study of Mus musculus with 10 samples.

Results

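The ceramide synthase family was followed in sorted retinal ganglion cells of Satb1 knockout (KO) and wild-type (WT) mice. Its members were the rows of the expression table that carry the symbols Lass1 to Lass6, the older names of Cers1 to Cers6, and all 6 were present among 23258 gene symbols. The family was taken up because Lass1 had stood among the transcripts with the lowest p in an earlier KO against WT comparison of the same libraries. The KO against WT values of the family are therefore given as a description, with no test. Each of the 10 libraries came from about 1000 GFP-positive ganglion cells of C57BL/6 mice at postnatal day 6, 5 libraries labelled Satb1-/- Hb9 (KO 1 to 5) and 5 labelled WT Hb9 (WT 1 to 5), from different litters. Mice of both genotypes carried the Hb9-GFP transgene, in which the Hb9 (Mnx1) promoter drives green fluorescent protein, so the sort took the cells in which that promoter was active. Satb1 is a chromatin organizer, and the labels do not state which part of it is missing. Levels are in TPM, transcripts per 1000000 transcripts, a unit scaled for transcript length.

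Ceramide synthases join a fatty acid, delivered as acyl-CoA, to the amino group of a sphingoid base. The product becomes ceramide, the precursor of sphingomyelin and of the gangliosides of neuronal membranes. The members differ in the length of the fatty acid they prefer. Cers1 makes long-chain ceramide and is known as the neuronal member, and loss of it in mice leads to death of cerebellar Purkinje cells. Cers2 and Cers4 use longer chains, Cers2 being needed for very-long-chain lipids of myelin and liver. Cers5 and Cers6 use palmitoyl-CoA, and Cers3 makes the ultra-long ceramides of skin and testis.

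In these cells the family was carried by 4 genes, Lass2, Lass4, Lass5 and Lass6, which were above 5 TPM in all 10 libraries. Lass3 was listed at 0 in 7 libraries. Lass1 was at 1.04 to 144 TPM in WT libraries and near 0 in every KO library. The entry of Gdf1, a gene that shares its exons with Lass1, ran from 1.56 TPM in WT 3 to 1260.2 TPM in KO 5. The sum of both entries overlapped between the genotypes.

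Lass1 (Cers1) lies on chromosome 8, from 70315775 to 70331592 on the plus strand (mm10, GENCODE M21, gene ENSMUSG00000087408.10). All 1349 exon bases of Gdf1 (70329817 to 70331587, same strand) fall inside exons of Cers1, within the last 2 of the 8 exons of transcript Cers1-202, and make up 49.8% of its exon bases. Gdf1 encodes a secreted ligand of the TGF-beta superfamily that acts with Nodal in left-right patterning of the embryo. In exon 7 the reading frame of ceramide synthase ends, and that of Gdf1 begins 401 bases further on. RefSeq (GRCm38.p6) lists 1 promoter window that both genes share and another for Gdf1 alone, close to the start of its own annotated transcript. The sequences printed here show this arrangement: the last 30 coding bases of Cers1 at chr8:70329551-70329580 with the stop codon in capitals, the opening 30 coding bases of Gdf1 at chr8:70329982-70330011 with the start codon in capitals (both from GENCODE), and the 250 bases before the shared start at chr8:70315525-70315774 (from RefSeq), with the match to GGGCGG, a GC box, in capitals. All are on the plus strand, 5′ to 3′.
Cers1 end of reading frame: aatggcctggtgaaggacaagctcttcTGA
Gdf1 start of reading frame: ATGctccctgtctgccatcgtttttgcgac
Cers1 promoter: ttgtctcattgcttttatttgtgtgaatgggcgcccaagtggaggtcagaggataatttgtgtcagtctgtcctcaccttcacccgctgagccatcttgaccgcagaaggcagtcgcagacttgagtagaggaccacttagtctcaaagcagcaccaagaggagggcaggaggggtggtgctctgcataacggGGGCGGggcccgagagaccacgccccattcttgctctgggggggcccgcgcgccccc

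**Figure D1:**
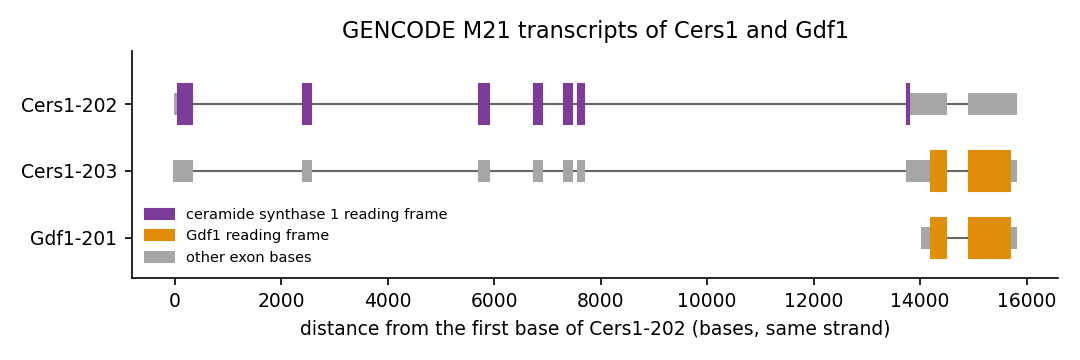
Transcripts of Cers1 and Gdf1 in GENCODE M21, drawn by distance in bases from the start of Cers1-202, with exons as boxes, introns as lines and reading frames in colour. Both exons of Gdf1-201 lie within exons of Cers1-202 and Cers1-203, and Cers1-203 carries the Gdf1 reading frame.

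Promoter windows of the other members were compared for the same letters, over the 250 bases before the start. GGGCGG or its complement occurred in 32.7% of 32817 such windows of the mouse genome. It occurred once before Cers1 and Cers4 and in 2 places before Cers5 and the more upstream start of Cers2, and not before Cers3 or Cers6. CACGTG, an E-box that reads the same on both strands, was found in 6.02% of all windows, and once each before the upstream start of Cers2 and before Cers6. TATAAA was found in 12.4% of all windows and in none of the family. GC content was 59.2% before Cers1, against 63.2% to 74.8% before Cers4, Cers5, Cers6 and the upstream start of Cers2, and 49.6% before Cers3, with a median of 52.4% over all windows.

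Ganglion cell markers were high in every library: the 12 listed genes, among them Rbpms, Sncg and Nefl, summed to 14685 to 102379 TPM in KO and 16071 to 31909 TPM in WT libraries. The highest sum was in KO 3, and the other KO libraries were at 14685 to 25805 TPM. By sign, 9 of the 12 genes were lower in KO and 3 higher, where 67.4% of all genes were lower. Markers of ON-OFF direction-selective ganglion cells (6 genes) summed to 116 to 308 TPM in KO libraries, against 534 to 1107 TPM in WT libraries, and their part in the results below was not tested. Genes of other cells varied by library in both genotypes. The 12 rod genes summed to 35.6 to 549 TPM in KO and 15.7 to 666 TPM in WT libraries, 8 microglia and macrophage genes to 70.4 to 2743 TPM in KO and 2.73 to 2198 TPM in WT libraries, and 7 Muller glia genes to 166 to 5744 TPM in KO and 306 to 597 TPM in WT libraries. The 9 amacrine genes summed to 88.9 to 262 TPM in KO and 86.6 to 358 TPM in WT libraries, and the 7 bipolar cell genes to 12 to 92.9 TPM in KO and 36.0 to 140.2 TPM in WT libraries. The 7 cone genes, with Opn1mw at 0 in all libraries, summed to 3.78 to 183 TPM in KO and 3.56 to 322 TPM in WT libraries. Sums of the 7 astrocyte and oligodendrocyte genes were 5.07 to 32.3 TPM in KO and 5.16 to 10.4 TPM in WT libraries, and of the 6 endothelial and pericyte genes 0.277 to 6.88 TPM in KO and 0.65 to 59.6 TPM in WT libraries. KO 4, KO 5 and WT 5 stood apart from the other 7 libraries on the first principal component, which held 32.9% of the variance. Satb1 itself was at 170, 126, 83.1, 34.9 and 24.1 TPM in KO 1 to 5 and 304, 189, 414, 132 and 38.6 TPM in WT 1 to 5, so the genotypes overlapped. In sorted cells, fewer cells of a type and less RNA per cell cannot be told apart.

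The Lass1 entry was listed at 6.59e-09, 0.0126, 0.134, 0.000968 and 0 TPM in KO 1 to 5. In WT 1 to 5 it was at 32.3, 6.96, 144, 1.26 and 1.04 TPM. Every KO library was below every WT library, while WT 4 and WT 5 were themselves close to 1 TPM. All KO values lay below all WT values in 0.426% of the 11744 genes tested, and since Lass1 was picked on this contrast nothing is read from that share. The fitted difference was -3.45 on the log2(TPM + 1) scale (SE 0.95, n = 5 each), a scale that understates changes of low values. Lass1 passed the filter on low values, at least 1 TPM in at least 5 libraries, only through its 5 WT libraries, so it had to differ to be tested. It was -2.52 without WT 3, which held the highest value. Without KO 4, KO 5 and WT 5 the difference was -4.04 (SE 1.20). All KO values were below all WT values for 4.49% of all genes in those 7 libraries. For Lass1 this was certain, since leaving libraries out cannot create overlap, and nothing is read from it.

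Gdf1 was at 24.4, 40.4, 9.95, 87.3 and 1260.2 TPM in KO 1 to 5. In WT 1 to 5 it was at 4.14, 25.3, 1.56, 16.6 and 58.9 TPM. The genotypes overlapped, and the highest value of each genotype was in a library that stood apart, KO 5 and WT 5. The fitted difference of Gdf1 was 2.36 (SE 1.08), 1.29 without KO 5, and 1.35 (SE 0.94) without the 3 libraries that stood apart. Among WT libraries the extremes of the entries were opposed. WT 3, with the highest Lass1 value, had the lowest Gdf1 value, and WT 5, with the lowest Lass1 value, had the highest Gdf1 value. The order was not inverse throughout, since WT 2 was above WT 4 in both entries.

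Since the exons are shared, both entries were also added, a choice made after the values had been seen. The sum was 24.4, 40.4, 10.1, 87.3 and 1260.2 TPM in KO 1 to 5. The sum in WT 1 to 5 was 36.4, 32.3, 146, 17.9 and 59.9 TPM. The genotypes overlapped, with medians of 40.4 TPM in KO and 36.4 TPM in WT libraries. The difference of the sum was 0.53 on the log2 scale (SE 0.97, 95% interval -1.49 to 2.54). The sum is a different quantity from the Lass1 entry, and it does not replace the difference of -3.45 for that entry. Without KO 4, KO 5 and WT 5 it was -0.93 (SE 0.78), with medians of 24.4 TPM in 3 KO and 34.3 TPM in 4 WT libraries. The Lass1 entry took at most 1.32% of the sum in KO libraries, and 88.6%, 21.6%, 98.9%, 7.06% and 1.73% of it in WT 1 to 5. How reads of the shared exons were divided between the entries is not given in the sources used here, and its part in the low Lass1 values was not tested. Of 142218 values above 0 in the table, 550 were, like those of Lass1 in KO 1 and KO 4, under 0.01 TPM.

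**Figure D2:**
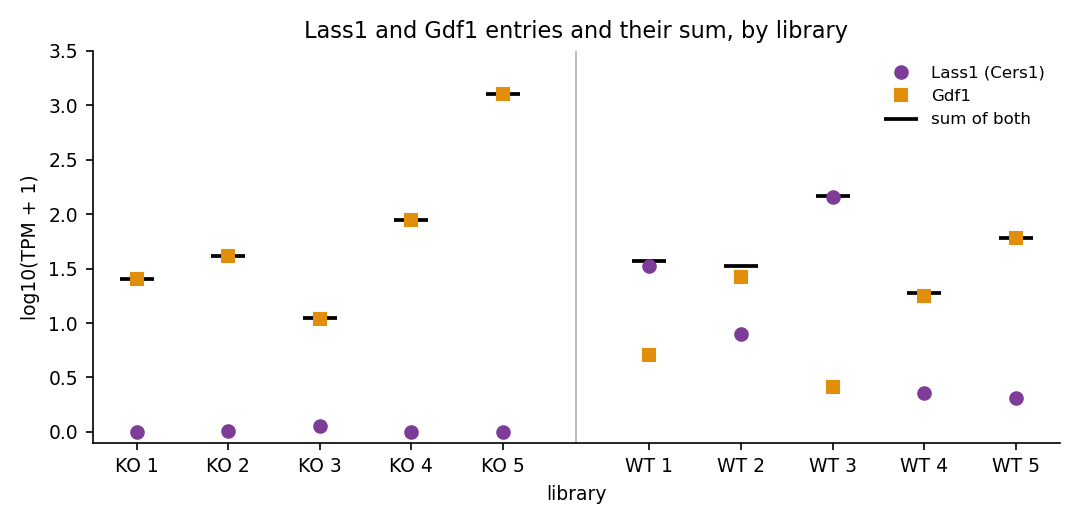
Levels of the Lass1 entry, the Gdf1 entry and their sum in each library, as log10(TPM + 1), with KO libraries left of WT libraries. Lass1 is near 0 in all 5 KO libraries, where Gdf1 makes up nearly the whole sum, and the sums of the genotypes overlap.

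The genes on either side of Lass1 were detected in all libraries, and their genotypes overlapped. Cope, a subunit of the coatomer of Golgi vesicles 2772 bases upstream, was at 74.1 to 206 TPM in KO and 44.7 to 428 TPM in WT libraries. Its log2 difference was -0.67 (SE 0.62; adjusted p = 0.992 by limma with Benjamini-Hochberg adjustment). Upf1, the helicase of nonsense-mediated decay, lies on the opposite strand and shares 68 exon bases with Cers1. It was at 2.43 to 11.2 TPM in KO and 4.56 to 30.6 TPM in WT libraries (-0.83, SE 0.75; limma adjusted p = 0.992).

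Lass2 (Cers2, chromosome 3, 95314791 to 95323599, plus strand) had the highest mean of the family on the log2(TPM + 1) scale. It was at 24.7, 103, 17.8, 56.2 and 65.6 TPM in KO 1 to 5. Lass2 in WT 1 to 5 was at 84.3, 57.2, 39.7, 23.7 and 12.6 TPM. The genotypes overlapped over most of their range. The means were 53.4 ± 34.3 TPM in KO and 43.5 ± 28.3 TPM in WT libraries (SD, n = 5 each). The log2 difference was 0.30 (SE 0.69). The sign depended on the libraries: without KO 4, KO 5 and WT 5 the difference was -0.36 (SE 0.71). The last exon bases of Cers2 overlap those of Setdb1, a histone H3 lysine methyltransferase on the opposite strand, by 75 bases, and Setdb1 was at 3.36 to 49.8 TPM in KO and 14.1 to 26.0 TPM in WT libraries (log2 difference -0.39, SE 0.73; limma adjusted p = 0.992).

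Lass5 (Cers5, chromosome 15, 99734881 to 99772885, minus strand) varied least among the 4 abundant members relative to its mean. It was at 48.4, 48.0, 38.2, 38.0 and 11.1 TPM in KO 1 to 5. WT 1 to 5 had 45.4, 34.8, 58.2, 25.6 and 17.4 TPM of Lass5. KO 5 and WT 5 were the lowest of their genotypes. The means were 36.7 ± 15.2 TPM in KO and 36.3 ± 16.1 TPM in WT libraries (SD, n = 5 each). The log2 difference of -0.02 (SE 0.64, 95% interval -1.37 to 1.32) leaves room for changes of more than 2-fold in either direction. Its neighbours are Cox14, an assembly factor of cytochrome c oxidase (4.22 to 252 TPM in KO and 2.20 to 189 TPM in WT libraries), and the actin-binding gene Lima1 (0.275 to 4.09 TPM in KO and 0.241 to 2.91 TPM in WT libraries), and both overlapped between the genotypes.

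Lass6 (Cers6, chromosome 2, 68861441 to 69114282, plus strand), which also makes palmitoyl ceramide, varied most among the 4 abundant members, by the same measure. It was at 95.6, 25.0, 42.1, 9.33 and 5.11 TPM in KO 1 to 5. The values in WT 1 to 5 were 128, 55.4, 35.3, 87.1 and 6.51 TPM. The lowest 3 values were in KO 4, KO 5 and WT 5, the libraries that stood apart, and the other 7 were at 25.0 to 128 TPM. The means were 35.4 ± 36.7 TPM in KO and 62.4 ± 46.9 TPM in WT libraries (SD, n = 5 each), with a log2 difference of -0.93 (SE 0.86). Without the 3 libraries it was -0.54 (SE 0.64).

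Lass4 (Cers4, chromosome 8, 4493026 to 4531680, plus strand) was lower than the other 3 on average. It was at 30, 26.0, 9.23, 16.5 and 7.85 TPM in KO 1 to 5. Lass4 in WT 1 to 5 was at 60.4, 23.4, 46.3, 8.12 and 14.8 TPM. WT 1 and WT 3 were above all KO libraries, and the other 3 WT libraries lay within the KO range. The means were 17.9 ± 9.88 TPM in KO and 30.6 ± 22.1 TPM in WT libraries (SD, n = 5 each), with a log2 difference of -0.59 (SE 0.73).

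Lass3 (Cers3, chromosome 7, 66743504 to 66823691, plus strand) was listed at 0 in 7 of the 10 libraries. It was at 0.0461 TPM in KO 3 and at 0 in the other KO libraries, against 2.48 TPM in WT 1, 0.869 TPM in WT 3 and 0 in the other WT libraries. It was not tested, since only 1 library reached 1 TPM. Lins1, listed as Lins, is its neighbour and was at 1.37 to 29.3 TPM in KO and 1.05 to 22.6 TPM in WT libraries.

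**Figure D3:**
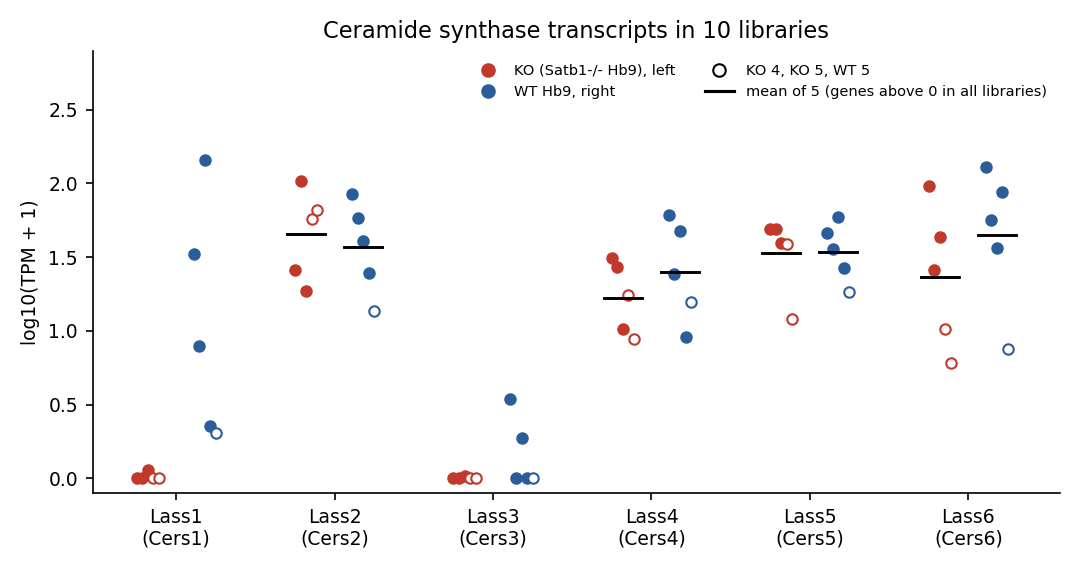
Levels of the 6 ceramide synthase genes in every library, as log10(TPM + 1), with KO points left of WT points for each gene and open circles for KO 4, KO 5 and WT 5. Lass1 is the gene whose genotypes do not overlap, and for Lass6 the open circles are the lowest points.

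The fit across all 11744 genes called 0% of them at a Benjamini-Hochberg adjusted p under 0.05 (limma), with 389 genes (3.31%) at an unadjusted p under 0.05. The members were not read against that threshold, since Lass1 was picked on this contrast. The median difference of all genes was -0.31, so the 4 abundant members are also given relative to it: 0.60 for Lass2, 0.28 for Lass5, -0.28 for Lass4 and -0.63 for Lass6. After centring of each library on its median, Lass5 was at 0.35 (SE 0.44) and Lass2 at 0.67 (SE 0.61), and Lass4 and Lass6 were at -0.21 (SE 0.55) and -0.56 (SE 0.70). Each of these lay within 1.2 SE of 0.

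Levels of members were compared within libraries, which TPM allows because it is per length. The order by mean log2(TPM + 1) over all 10 libraries was Lass2 (5.35), Lass5 (5.09), Lass6 (5.01), Lass4 (4.36), Lass1 (1.76) and Lass3 (0.28). Among the members other than Lass1, 4 neighbouring pairs were tested with a two-sided exact sign-flip permutation test over the 10 libraries. Lass2 exceeded Lass5 in 5 of 10 libraries (mean log2 difference 0.26 ± 1.09 SD; exact p = 0.486, 0.648 after Benjamini-Hochberg adjustment over the pairs). Lass5 exceeded Lass6 in 5 of 10 (0.09 ± 1.25; exact p = 0.824, adjusted 0.824). Lass6 exceeded Lass4 in 5 of 10 (0.65 ± 1.42; exact p = 0.189, adjusted 0.379). These 3 pairs did not differ beyond the spread between libraries. Lass4 exceeded Lass3 in 10 of 10 libraries (4.09 ± 0.68; exact p = 0.00195, the smallest that 10 libraries allow, adjusted 0.00781). The size of that difference is set by the pseudocount, 6.75 with 0.1 and 2.25 with 5, because Lass3 was listed at 0 in 7 libraries. The order of the pairs came from these same libraries, and Lass4 was at 7.85 TPM or more in each. The outcome of this test was therefore close to fixed, and nothing is read from its p.

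No member led in all libraries. Lass6 was the highest in 4 libraries (KO 1, KO 3, WT 1 and WT 4), Lass2 in 4 (KO 2, KO 4, KO 5 and WT 2), Lass1 in WT 3 and Lass5 in WT 5. The Lass2 share of the summed family level was 12.4% to 73.1% in KO libraries and 12.2% to 32.2% in WT libraries, with means of 40.0 ± 25.4% in KO and 21.7 ± 7.73% in WT libraries (SD, n = 5 each). Lass6 made up 22.6 ± 19.6% in KO and 30.1 ± 20% in WT libraries, and Lass5 25.5 ± 8.86% in KO and 20.3 ± 7.71% in WT libraries. The sum of all 6 genes was 144 ± 52.9 TPM in KO and 211 ± 126 TPM in WT libraries, and without Lass1 it was 144 ± 52.9 TPM in KO and 174 ± 96.7 TPM in WT libraries (SD, n = 5 each), with overlap in both cases.

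**Figure D4:**
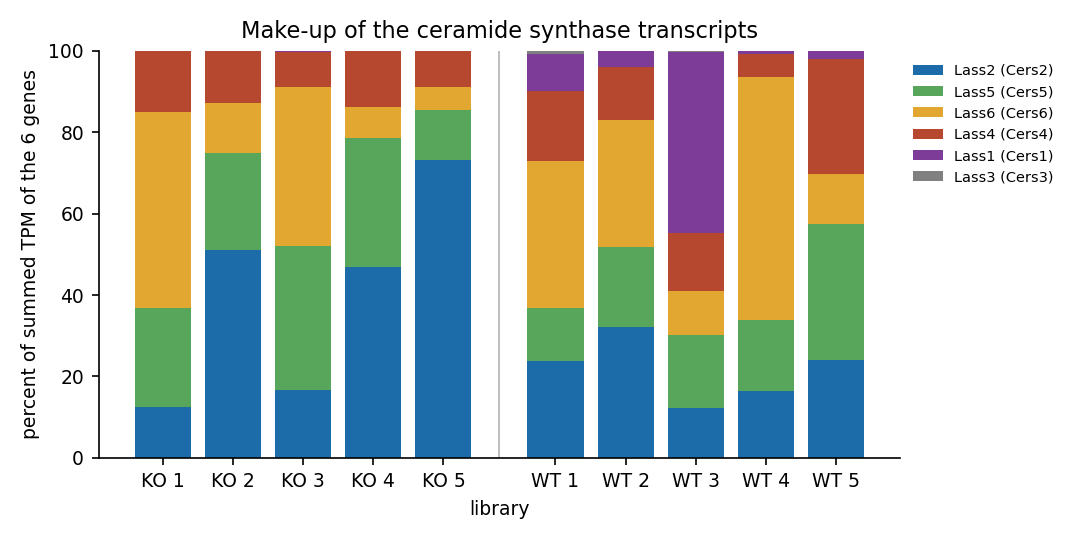
Share of each gene in the summed TPM of the 6 ceramide synthase genes, in percent, for each library, with KO libraries left of WT libraries. Lass2 or Lass6 is the largest part in 8 of the 10 libraries, and Lass1 makes up 44.4% in WT 3.

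For each member the genes with the most similar pattern were taken by Pearson's r of log2(TPM + 1) over the 10 libraries, which share depth and quality of each library. For Lass1 these were Zfp553 (r = 0.931), the palmitoyltransferase gene Zdhhc15 (0.924), Zfp300 (0.924), the helicase gene Brip1 (0.915) and Tjap1 (0.912). These are the highest of 11744 genes, so they describe the libraries and carry no test. Since Lass1 was picked on the KO against WT contrast, its r values favour genes that were also lower in KO. Each of these genes had a lower mean in KO, as Zfp553 did (13.7 TPM in KO and 45.2 TPM in WT libraries). For Lass2 they were Errfi1 (0.943) and Mlec (0.929), for Lass4 Vstm2a (0.976) and Arhgap36 (0.966), for Lass5 Trim37 (0.956) and Otud7b (0.956), and for Lass6 Myst3 and Ankib1 (0.979 each). No gene was among the most similar of more than 1 member, but with so few genes kept for each member this was nearly certain. Between the tested members themselves r ran from 0.03 (Lass2 and Lass6) to 0.72 (Lass4 and Lass5).

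The other genes of sphingolipid metabolism were read from 7 lists with 78 genes, of which 64 were tested. At a limma adjusted p under 0.05, 0 of the 64 were called, where 0% of all genes were. At an unadjusted p under 0.05, 2 of the 64 were lower in KO (3.12%, against 2.57% of all genes) and 0 were higher (0.741% of all genes), so the lists were close to the background. By sign, 50 of 64 (78.1%) were lower in KO, against 67.4% of all genes, with medians of -0.52 and -0.31. After median centring 38 of 64 (59.4%) were lower, against 46.1% of all genes. Without KO 4, KO 5 and WT 5 the share was 73.4%, against 61.8%. For none of the 64 genes did the genotypes separate completely, where all KO libraries were below all WT libraries in 0.426% of all genes and above them in 0.0766%. In the 7 libraries without KO 4, KO 5 and WT 5, counted after the values had been seen, all KO values were below all WT values for 8 of the 64 genes (12.5%, against 4.49% of all genes) and above them for 0 (1.11% of all genes). These 8 were B4galnt1, B4galt5, Elovl6, Kdsr, Hacd2 (listed as Ptplb), Sgpp1, Sgpp2 and Sptlc2.

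Before and after the ceramide synthase step, 6 of 9 tested genes were lower and 3 higher in KO (66.7% lower, against 67.4% of all genes). The counts by list given here and below are without median centring. Degs2 and Degs1, desaturases that turn dihydroceramide into ceramide or hydroxylate it, had the highest levels, with means over all 10 libraries of 161 ± 70.7 and 85.4 ± 99.4 TPM (SD). Kdsr, the reductase that makes the sphingoid base, was at 1.29, 2.18, 0.789, 0.689 and 0.348 TPM in KO 1 to 5 and 8.44, 2.94, 5.21, 4.75 and 1.79 TPM in WT 1 to 5. Of the KO libraries, KO 2 alone exceeded a WT library, WT 5 (log2 difference -1.39, SE 0.62; limma adjusted p = 0.992, unadjusted 0.0369). Sptlc2, a catalytic subunit of serine palmitoyltransferase that opens the pathway, averaged 29.8 ± 22.9 TPM in KO and 75.3 ± 38.0 TPM in WT libraries (-1.39, SE 0.71; limma adjusted p = 0.992).

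Among genes that lengthen, hydroxylate or supply the fatty acid, 12 of 13 (92.3%) were lower and 1 higher, with a median of -0.67. Of all genes 67.4% were lower, with a median of -0.31. Tecr, the last enzyme of the elongation cycle, and Dbi, which binds acyl-CoA, were the most abundant, at 1673 ± 715 and 263 ± 271 TPM over all 10 libraries (SD). Elovl1, an elongase that supplies very long chains to Cers2, was the gene with the positive sign, at 7.27 to 39.5 TPM in KO libraries. Elovl1 in WT 1 to 5 was at 63.2, 6.81, 0, 0 and 1 TPM, so the genotypes overlapped (2.11, SE 1.01; limma adjusted p = 0.992). Elovl5, an elongase of polyunsaturated chains, averaged 20 ± 18.7 TPM in KO and 40.5 ± 25.6 TPM in WT libraries (-1.25, SE 0.85; limma adjusted p = 0.992), and the difference was -0.69 without KO 5.

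Of the genes that break ceramide down or handle sphingosine and its phosphate, 8 of 8 were lower, with a median of -0.75. The share lower over all genes was 67.4%, with a median of -0.31. Sgpp2, a phosphatase of sphingosine-1-phosphate, was at 0.659, 0.878, 1.04, 0.473 and 0.0824 TPM in KO 1 to 5 and 35, 1.69, 4.27, 5.73 and 0.449 TPM in WT 1 to 5. All KO libraries were below WT 1 to 4, and WT 5 lay within the KO range (-1.79, SE 0.76; limma adjusted p = 0.992, unadjusted 0.0288). Acer3, an alkaline ceramidase, was at 0.672 to 4.96 TPM in KO libraries and reached 103 TPM in WT 1, with the other WT libraries at 1.03 to 9.89 TPM (-1.67, SE 0.91; limma adjusted p = 0.992). Without WT 1 the differences were -0.80 for Acer3 and -1.11 for Sgpp2. The most abundant of these genes were Sgpp1, a paralog of Sgpp2, at 34.1 ± 28.2 TPM and the acid ceramidase gene Asah1 at 31.0 ± 24.3 TPM over all 10 libraries (SD).

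In the sphingomyelin list 6 of 8 genes (75.0%, against 67.4% of all genes) were lower and 2 higher (median -0.50, against -0.31). The sphingomyelinase genes Smpd3 and Smpd1 were the most abundant, at 133 ± 73.2 and 58.9 ± 32.6 TPM over all 10 libraries (SD). Sgms2, a sphingomyelin synthase, was at 0 to 4.35 TPM in KO and 0.26 to 6.79 TPM in WT libraries (-0.84, SE 0.66; limma adjusted p = 0.992). Smpd2 was at 0.548 to 35.5 TPM in KO libraries, and listed at 0 in WT 1 to 3 and at 15.0 and 12.9 TPM in WT 4 and WT 5 (1.08, SE 1; limma adjusted p = 0.992). Its difference was 0.45 without KO 1.

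Among genes that build glycosphingolipids 11 of 13 (84.6%, against 67.4% of all genes) were lower and 2 higher (median -0.54, against -0.31). B4galnt1, which makes complex gangliosides, stood at 194 ± 125 TPM and the sialyltransferase gene St8sia3 at 49.7 ± 34.6 TPM over all 10 libraries (SD). B4galt5, a lactosylceramide synthase, averaged 12.6 ± 3.08 TPM in KO and 37.5 ± 20.7 TPM in WT libraries, with WT 5 at 8.67 TPM within the KO range (-1.28, SE 0.69; limma adjusted p = 0.992). B3galt4, a galactosyltransferase of ganglioside synthesis, was at 0.294 to 13.5 TPM in KO libraries, and at 3.36, 19.5, 0, 0 and 0 TPM in WT 1 to 5 (1.48, SE 0.93; limma adjusted p = 0.992).

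Genes that degrade glycosphingolipids were split, 7 of 12 (58.3%, against 67.4% of all genes) lower and 5 higher (median -0.14, against -0.31). Psap, the precursor of the saposin activators, averaged 301 ± 243 TPM in KO and 178 ± 53.7 TPM in WT libraries (0.49, SE 0.57; limma adjusted p = 0.992), a difference that was -0.13 without the 3 libraries that stood apart. Gla, the alpha-galactosidase, was at 0.486 to 7.23 TPM in KO and 0.977 to 32.7 TPM in WT libraries (-1.48, SE 0.81; limma adjusted p = 0.992), with -0.98 without WT 1. Of the 5 sphingosine-1-phosphate receptors only S1pr2 was tested, at 0.115 to 8.99 TPM in KO and 0 to 2.59 TPM in WT libraries (0.57, SE 0.68; limma adjusted p = 0.992).

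**Figure D5:**
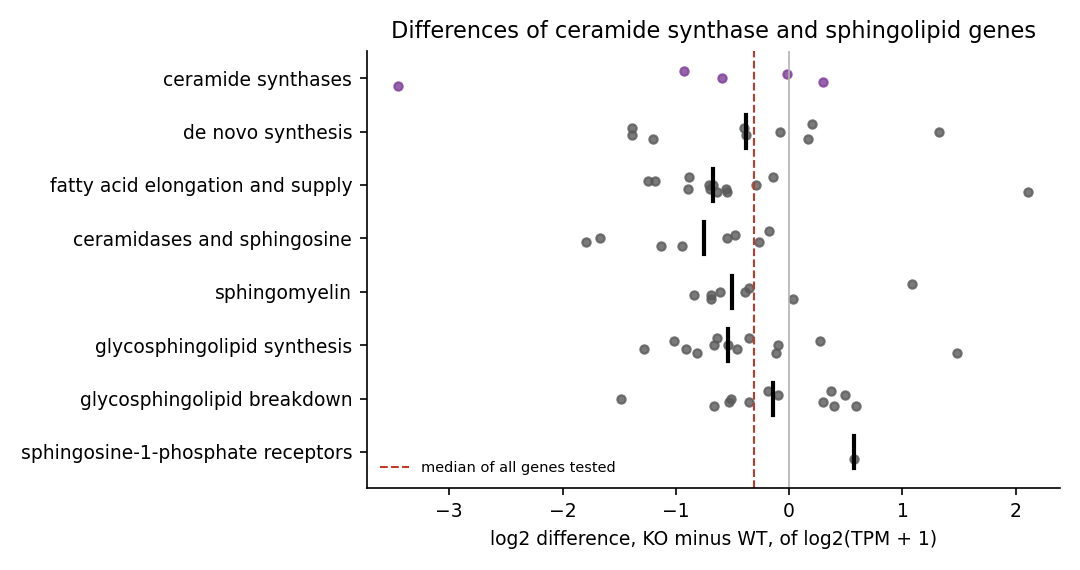
Log2 differences, KO minus WT, of the 5 ceramide synthase genes in the fit and of the 64 tested genes of 7 sphingolipid lists, each point a gene, with black bars for list medians and a dashed line for the median of all genes tested, -0.31. Lass1, which was picked on this contrast, lies at -3.45, and most points lie left of 0.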

How the data were processed

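The submitters' processing notes name Cufflinks, TopHat2 2.0.10 and build mm10 of the mouse genome. Gene annotation, read counting and any use of strand were not given in the sources used here. Per the labels' protocols, cDNA was amplified before library construction. The authors deposited log10(TPM + 1) values for 23746 entries; back-transformed, each library sums to 1000000 TPM. TPM keeps no depth, so no counting interval was computed. The 26 entries with a number for a symbol (0.044% to 0.198% of TPM) were left out, and 240 repeated symbols were summed. A value of 0 can be a failed estimate, so single values are given for most such genes. Sgms2 (0 in KO 1) and S1pr2 (0 in WT 3) are given as ranges.

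Genes reaching 1 TPM in 5 or more libraries were fitted with limma 3.58.1 (R 4.3.3) on log2(TPM + 1), with genotype as the only term and a variance trend, and adjusted by Benjamini-Hochberg. The fit was tested on simulated data. Coordinates are from GENCODE M21 and promoters from RefSeq, matched for 6 of 6 members. The members, lists and 3 libraries apart were chosen with earlier results of these data known. Named genes are all members, Satb1, Gdf1, flanking genes listed in the table, and in each list the 2 most abundant and the 2 with the lowest p. The values of 1 such gene are not reported here. Alternatives covered pseudocount, filter, scaling, block, weights, trend and libraries left out.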

Additional observations from a re-analysis of the deposited data

Results flagged for a closer look

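In each of 20 groups of 5 values, 1 value was marked where its gap to the nearest other exceeded 0.71 of the range. Chance does this in about 1 group in 20. That rate is for normally spread values, and TPM values are skewed. The Lass1 entry was at 0.134 TPM in KO 3, with the other KO libraries at most 0.0126 TPM. In WT 3 the Lass1 entry was at 144 TPM, with the next WT library at 32.3 TPM. Lass3 was at 0.0461 TPM in KO 3 and at 0 in the other KO libraries, so any value above 0 would have been marked. Lass5 was at 11.1 TPM in KO 5, against 38.0 TPM in the next lowest KO library. Gdf1 was at 1260.2 TPM in KO 5, against 87.3 TPM in KO 4, and the sum of Lass1 and Gdf1 was marked at the same values, since Lass1 was listed at 0 in KO 5.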

How the results depend on the processing

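The call of 0 genes in the main fit became 1 gene (Rpp25) with a filter on a mean of 5 TPM and with no variance trend, 3 (Cartpt, Rpp25 and Scarna3b) with library weights, and 0 to 1 with each library left out: Rpp25 without WT 3, Cartpt without WT 4 and Scarna3b without WT 5. None of the sphingolipid genes was called in any of 21 alternatives. The Lass1 difference depended on the pseudocount, at -6.17 with 0.1 and -1.92 (SE 0.66) with 5. It was -4.06 to -2.52 with each library left out. The sum of Lass1 and Gdf1, which in KO libraries was nearly all Gdf1, was at 0.53. Differences of Lass2 (-0.36 to 0.67), Lass4 (-0.96 to -0.21), Lass5 (-0.25 to 0.35) and Lass6 (-1.58 to -0.45) moved by less than 1 SD in 18 alternatives each. The SD is the residual SD of the gene in the main fit, a wide bound, and Lass2 and Lass5 changed sign within it. Without KO 4, KO 5 and WT 5, Psap was at -0.13, S1pr2 at -0.07, Lass5 over Lass6 at -0.48 and Lass4 over Lass3 at 4.23, with an adjusted exact p of 0.0625 for the last, where 7 libraries limit how small p can be. With each library left out, Lass5 over Lass6 ran from -0.12 to 0.29, Lass2 over Lass5 from 0.01 to 0.40, Lass6 over Lass4 from 0.35 to 0.84 and Lass4 over Lass3 from 3.99 to 4.19. With the replicate number as a block 0 genes were called by limma, with 830 at an unadjusted p under 0.05. The SEs of the members were then 0.44 (Lass5) to 0.90 (Lass1). Same-numbered libraries correlated at -0.03 to 0.36 in their deviations. KO 1, KO 3 and KO 5 matched the WT library of their own number best, and KO 2 and KO 4 did not. The titles number the replicates within each genotype and name no pairs, so the numbers were not taken to pair them. Different litters do not settle this. Depth is unknown, and with 5 libraries a genotype and SEs of 0.64 to 0.95 for the members, differences of 2-fold were not detectable.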
